A study of Mus musculus with 6 samples.

Results

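Cells build cholesterol from acetyl-CoA, take it up from lipoproteins and export it, and 33 genes of these routes were followed in mouse hematopoietic stem cells (HSCs) after ionizing radiation. They were chosen by name for their function: 19 enzymes of sterol synthesis, 5 genes of SREBP control, 4 of sterol transport and storage, and 5 of LXR signalling, efflux and receptor turnover. All 33 were found among the 21851 genes of each deposited table. Of them, 31 reached at least 1 FPKM (a fragment count scaled to transcript length and library depth) in at least 3 of the 6 libraries and were tested; Abca1 and Nr1h3 did not reach it. The study compared HSCs from the bone marrow of irradiated mice (IR, 3 libraries) with HSCs from control mice (Ctrl, 3 libraries), all of wild-type (WT) genotype. By the series' design the sorted cells lacked lineage markers, Flt3 and CD48 and carried Sca-1, c-Kit and CD150. No label or protocol at hand gives the radiation dose, the interval to the sort, the sex and age of the mice or how many mice made up a library. Nor do they state whether replicate libraries stand for separate mice, and the p-values therefore cover only the scatter among these 6 libraries, which may be technical.

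Sterol synthesis begins with the mevalonate route, which makes isoprenoid units, and continues from squalene to lanosterol and then to cholesterol. The transcription factor SREBP-2, encoded by Srebf2, drives these enzymes when membrane sterol is low: its escort SCAP carries it from the endoplasmic reticulum to the Golgi for cleavage, and the INSIG proteins hold the complex back when sterol is plentiful. When sterol is in excess, oxysterols activate the LXR receptors, which raise the ABC transporters that export cholesterol and Mylip, the ubiquitin ligase that removes lipoprotein receptors. In blood formation, loss of cholesterol efflux is known from mice to expand stem and progenitor cells.

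The sterol genes did not move as a block after irradiation. Of the 31 tested genes 7 rose, 8 fell and 16 were not called (limma with Benjamini-Hochberg adjustment over all genes tested, adjusted p under 0.05), so 48.4% were called, against 54.7% of all 10281 genes tested. In these libraries 25.8% of all genes tested rose and 28.9% fell. The risers were Lss, Stard4, Fdps, Idi1, Srebf1, Mvd and Scap, and the genes that fell were Npc1, Msmo1, Nr1h2, Npc2, Hmgcs1, Mvk, Insig2 and Srebf2. Log2 fold changes (irradiated over control) were taken on the log2(FPKM + 1) scale, on which low genes appear to change less than they do. They ran between -0.27 and 0.52, and their median was -0.03, against a median of -0.01 over all genes tested. The changes were small: the median size of change was 0.10 on the log2 scale among the 31 genes and 0.14 among all genes tested. In 17 of the 31 genes the ranges of the 2 groups did not overlap (irradiated higher in 9 and lower in 8), while 61.7% of all genes tested had such separated groups. Within a group the libraries were close, with a median coefficient of variation over the 31 genes of 3.82% in irradiated HSCs and 2.73% in control HSCs.

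**Figure D1:**
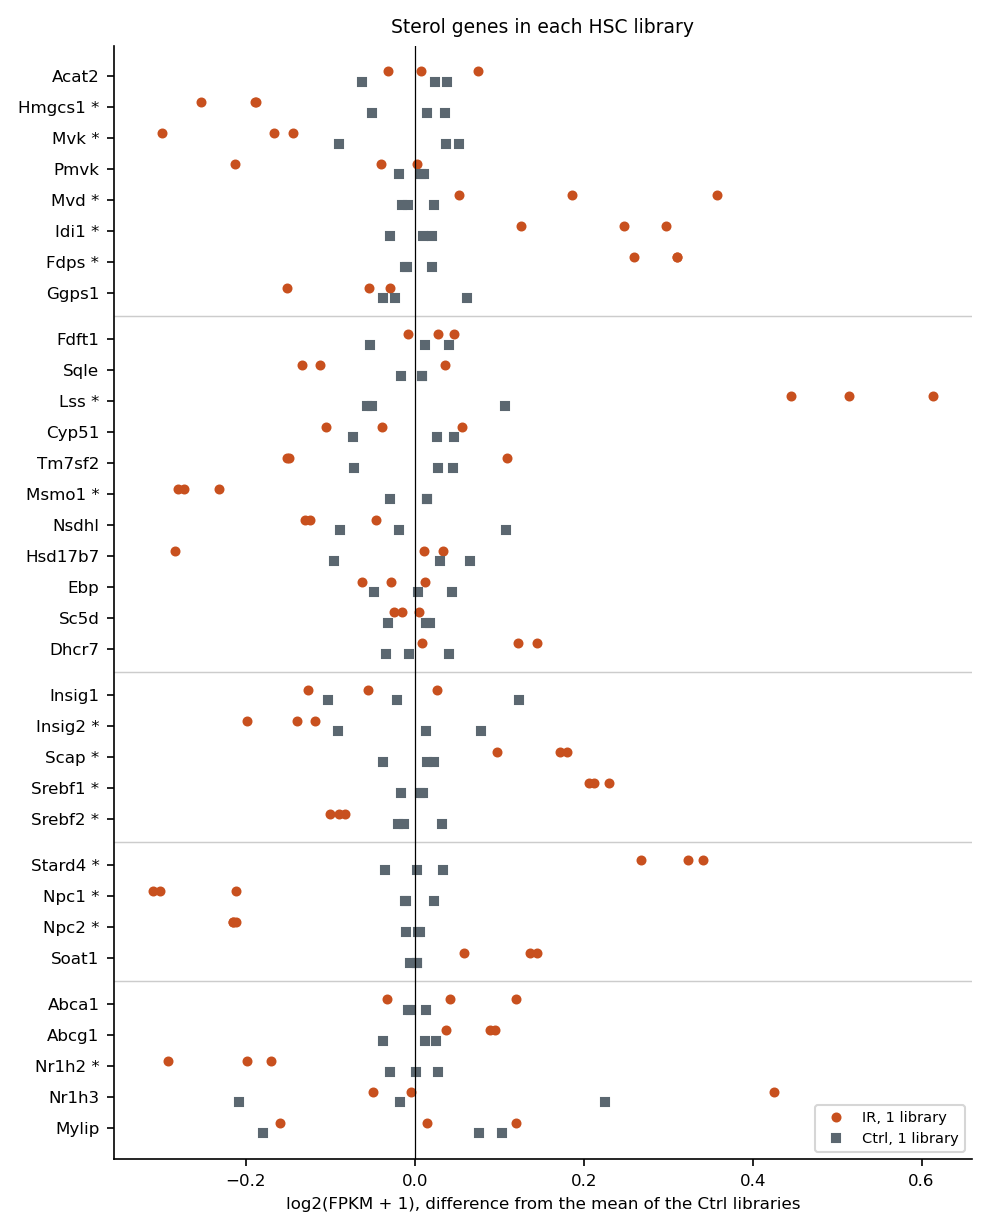
Each gene's log2(FPKM + 1) in every library, as the difference from the mean of the control libraries, with irradiated libraries as circles above and control libraries as squares below, in pathway order from top to bottom; an asterisk marks a gene called by limma. The 3 irradiated values of Lss stand farthest to the right, those of Msmo1, Npc1 and Npc2 stand left of all control values, and Nr1h3 scatters widely in both groups.

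In the mevalonate and isoprenoid part of the pathway 3 of 8 enzymes rose, 2 fell and 3 were not called. Thus 62.5% were called, against 54.7% of all genes tested. Fdps, which makes farnesyl diphosphate, the branch point to sterols, dolichol and prenylated proteins, had 110.1, 114.1 and 114.1 FPKM in irradiated HSCs, against 93.1, 91.2 and 91.1 FPKM in control HSCs. The groups were far apart relative to their spread, and the log2 fold change was 0.29 (SE 0.025, limma adjusted p = 8.08e-06). Fdps had the highest level of the 33 genes in both groups, and its body on chromosome 3 (89093588 to 89101959, minus strand, GRCm38) overlaps a predicted coding gene of the same strand, Gm43738, whose reads could be counted with it.

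Idi1 and Mvd, the enzymes just before Fdps in the route, also rose. Idi1, the isomerase that readies isoprenoid units for joining, had 23.5, 20.8 and 22.7 FPKM in irradiated HSCs, against 19.1, 19.2 and 18.5 FPKM in control HSCs (log2 fold change 0.22, adjusted p = 0.00229 by limma). Mvd, the decarboxylase that makes these units, had 8.42, 10.6 and 9.33 FPKM in irradiated HSCs, against 7.99, 8.03 and 8.23 FPKM in control HSCs (0.20, adjusted p = 0.0315). The irradiated libraries of Mvd were spread widely, with replicate 1 close to the controls and replicate 2 highest. When 1 library was left out, its call held only without irradiated replicate 1: without any of the other 5 libraries in turn the adjusted p lay between 0.0508 and 0.101, and without irradiated replicate 2 the log2 fold change was 0.12.

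The other enzymes of this part of the pathway moved the other way or were not called. Hmgcs1, the cytosolic HMG-CoA synthase (chromosome 13, 119690379 to 119708260), had 21.2, 22.2 and 22.2 FPKM in irradiated HSCs, against 25.7, 24.5 and 26.1 FPKM in control HSCs, a log2 fold change of -0.21 (SE 0.0372, limma adjusted p = 0.000925). Mvk, mevalonate kinase, had 8.56, 9.48 and 9.64 FPKM in irradiated HSCs, against 10.1, 11.1 and 11.2 FPKM in control HSCs (-0.20, adjusted p = 0.0118). For both enzymes every irradiated library lay below every control library. Within each library the ratio of Fdps to Hmgcs1 FPKM, a choice made after their values were seen, was 5.20, 5.14 and 5.14 in irradiated HSCs and 3.62, 3.72 and 3.49 in control HSCs; since the genes were picked for opposite directions, this is a description with no test. The thiolase Acat2 averaged 49.7 ± 1.90 FPKM in irradiated HSCs and 49.1 ± 1.86 FPKM in control HSCs (SD, n = 3 each), with a 95% interval of the log2 fold change of -0.07 to 0.10. Pmvk, phosphomevalonate kinase, and Ggps1, which makes the geranylgeranyl donor of protein prenylation, had log2 fold changes of -0.08 each, with intervals of -0.20 to 0.03 and -0.19 to 0.03.

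Of the 11 enzymes that turn farnesyl diphosphate into cholesterol only Lss and Msmo1 were called, in opposite directions. This was 18.2% called, against 54.7% of all genes tested. Lss, the cyclase that folds squalene epoxide into lanosterol (chromosome 10, 76531588 to 76557138), had 5.80, 6.64 and 6.13 FPKM in irradiated HSCs, against 4.38, 3.798 and 3.82 FPKM in control HSCs. This was the largest change among the 31 genes tested, a ratio of mean FPKM of 1.55 and a log2 fold change of 0.52 (SE 0.0647, limma adjusted p = 9e-05). Msmo1, the monooxygenase that starts removal of methyl groups from lanosterol's products (chromosome 8, 64718139 to 64733792), had 58.3, 56.7 and 56.4 FPKM in irradiated HSCs, against 67.3, 69.4 and 69.4 FPKM in control HSCs. Its log2 fold change was -0.26 (SE 0.0275, adjusted p = 3.13e-05), with no overlap between the groups.

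The other 9 sterol enzymes had overlapping groups and were not called. Sqle, squalene epoxidase, a rate-controlling step, had 36.5, 37.0 and 41.1 FPKM in irradiated HSCs, against 40.3, 39.6 and 40.3 FPKM in control HSCs. Irradiated replicate 3 stood above the controls and the other 2 below them; without replicate 3 the log2 fold change was -0.12 and passed the threshold (adjusted p = 0.0128), against -0.07 (adjusted p = 0.196) with all libraries. Dhcr7, the reductase of the last step, averaged 14.7 ± 0.779 FPKM in irradiated HSCs and 13.7 ± 0.383 FPKM in control HSCs, and Nsdhl, a dehydrogenase of C4 demethylation, 22.1 ± 0.759 and 23.8 ± 1.72 FPKM in irradiated and control HSCs (SD, n = 3 each). Without irradiated replicate 1 Dhcr7 passed the threshold at 0.13 (adjusted p = 0.0329), and without control replicate 3 Nsdhl did at -0.14 (adjusted p = 0.0348). Squalene synthase Fdft1, lanosterol demethylase Cyp51, the reductase Tm7sf2, the ketosteroid reductase Hsd17b7, the isomerase Ebp and the desaturase Sc5d had log2 fold changes between -0.08 and 0.02. Tm7sf2 overlaps Vps51 on the same strand, so its 4.54 ± 0.590 FPKM in irradiated HSCs and 4.77 ± 0.250 FPKM in control HSCs (SD, n = 3 each) are uncertain.

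**Figure D2:**
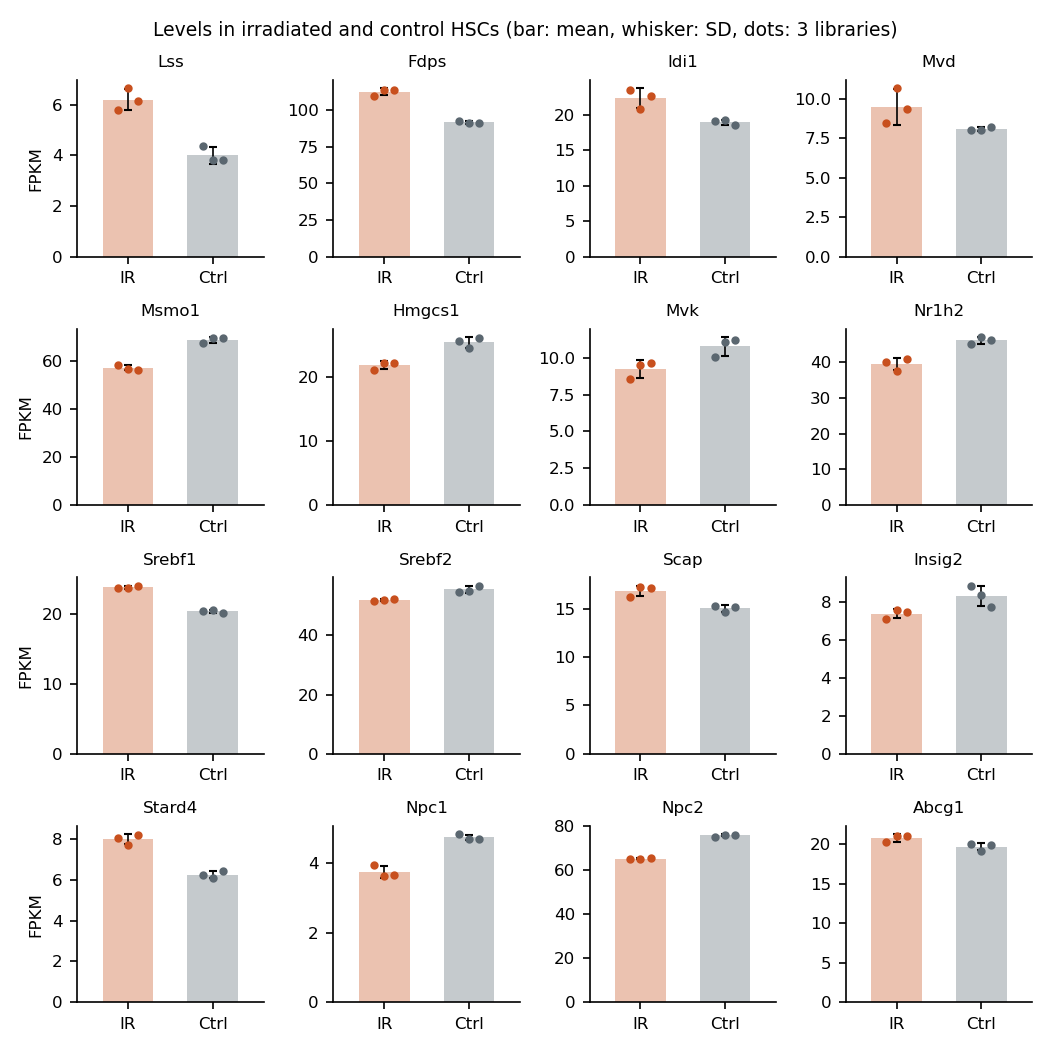
FPKM of 16 of the genes in irradiated (left bar) and control HSCs (right bar), with the mean as bar, the SD as whisker and the 3 libraries as dots; every axis starts at 0. Lss, Fdps, Idi1, Mvd, Srebf1, Scap and Stard4 were higher in irradiated HSCs, and Msmo1, Hmgcs1, Mvk, Nr1h2, Srebf2, Insig2, Npc1 and Npc2 were lower; Abcg1 was not called.

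Summed over the 19 enzymes, FPKM differed little between the groups, at 480.5, 488.6 and 502 in irradiated HSCs and 489.3, 480.8 and 483.9 in control HSCs. The parts of the pathway differed in sum. The 8 mevalonate and isoprenoid enzymes summed to 245.4, 252.5 and 257.5 FPKM in irradiated HSCs, against 234.3, 229.7 and 232.7 FPKM in control HSCs, and the 11 sterol enzymes to 235.1, 236.1 and 244.5 FPKM in irradiated HSCs, against 254.9, 251.1 and 251.2 FPKM in control HSCs. Each of these separations rested on 1 abundant gene. Fdps held 23.0% of the enzymes' summed FPKM in irradiated HSCs and 18.9% in control HSCs, and without it the mevalonate enzymes summed to 139 ± 4.06 FPKM in irradiated HSCs and 140.4 ± 1.74 FPKM in control HSCs (SD, n = 3 each). Without Msmo1 the sterol enzymes summed to 181.4 ± 5.96 and 183.7 ± 3.38 FPKM in irradiated and control HSCs. The sums of transport and storage and of LXR, efflux and receptor turnover were also lower in irradiated HSCs, and Npc2 and Nr1h2 had the highest levels in those lists.

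**Figure D3:**
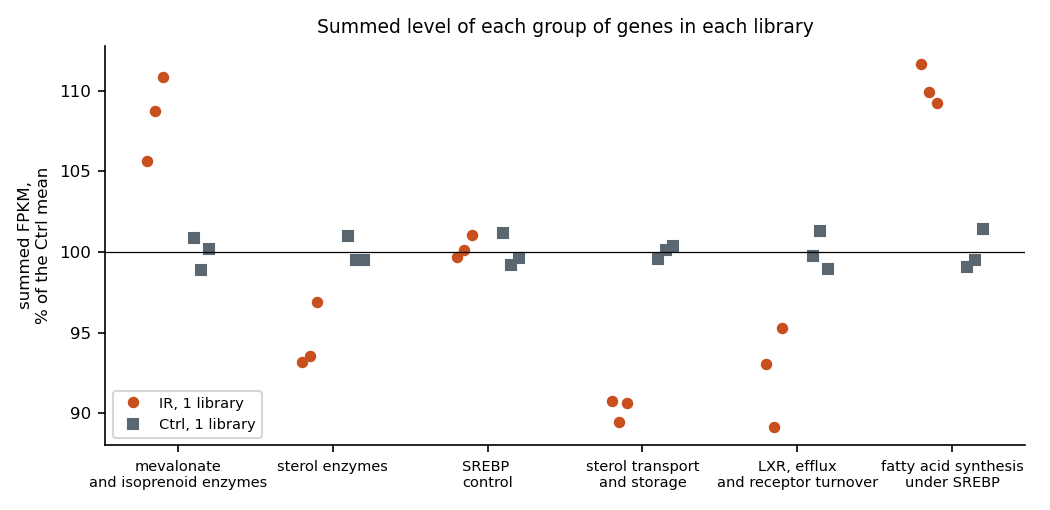
Summed FPKM of each group of genes in each library, as a percentage of the control mean, with irradiated libraries as circles on the left and control libraries as squares on the right; the vertical axis does not start at 0. Irradiated libraries lay between 105.7% and 110.9% for mevalonate and isoprenoid enzymes, between 93.15% and 96.87% for sterol enzymes, between 89.44% and 90.75% for transport and storage and between 109.3% and 111.7% for fatty acid synthesis under SREBP.

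CCAAT and GGGCGG motifs stood upstream of the RefSeq starts of enzymes that rose and of enzymes that fell. A difference between them was not tested. The 250 bases before the RefSeq start (GRCm38.p6) are shown for the risers Idi1 (chr13:8885356-8885605, plus strand) and Lss (chr10:76531355-76531604, plus strand) and for Hmgcs1 (chr13:119690101-119690350, plus strand) and Msmo1 (chr8:64733579-64733828, minus strand), which fell. Capitals mark CCAAT (the box bound by NF-Y, a known partner of SREBP), GGGCGG (the GC box bound by Sp1) and TCACNCCAC (a form of the sterol regulatory element), on either strand, with no base shared between motifs; each sequence is given on its gene's strand.
Idi1: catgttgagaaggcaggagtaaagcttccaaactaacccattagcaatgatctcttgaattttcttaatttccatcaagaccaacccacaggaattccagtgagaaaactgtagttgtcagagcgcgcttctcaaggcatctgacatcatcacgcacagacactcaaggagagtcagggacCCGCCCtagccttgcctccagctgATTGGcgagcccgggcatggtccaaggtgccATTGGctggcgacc
Lss: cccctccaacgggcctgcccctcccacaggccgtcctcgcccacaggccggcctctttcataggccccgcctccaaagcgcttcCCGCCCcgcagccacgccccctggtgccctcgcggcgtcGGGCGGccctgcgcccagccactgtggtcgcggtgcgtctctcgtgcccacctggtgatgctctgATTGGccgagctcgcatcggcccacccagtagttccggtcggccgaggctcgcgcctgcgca
Hmgcs1: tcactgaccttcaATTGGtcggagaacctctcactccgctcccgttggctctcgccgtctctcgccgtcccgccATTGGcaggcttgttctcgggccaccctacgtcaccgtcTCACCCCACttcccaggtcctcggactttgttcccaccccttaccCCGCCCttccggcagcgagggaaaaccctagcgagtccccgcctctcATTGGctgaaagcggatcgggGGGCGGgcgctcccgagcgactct
Msmo1: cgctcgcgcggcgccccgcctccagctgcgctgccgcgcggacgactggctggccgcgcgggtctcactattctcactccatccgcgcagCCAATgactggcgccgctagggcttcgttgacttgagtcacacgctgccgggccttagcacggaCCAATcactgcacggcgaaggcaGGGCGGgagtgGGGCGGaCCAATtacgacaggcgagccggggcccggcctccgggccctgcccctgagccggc

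Hmgcs1 held the TCACNCCAC element 1 time, and the other 3 windows did not hold these letters. CCAAT occurred 2 times before Idi1, 1 time before Lss, 3 times before Hmgcs1 and 3 times before Msmo1. RefSeq windows were at hand for 27 of the 33 genes, among them 16 enzymes, and Fdps, Fdft1, Sqle, Stard4, Npc1 and Abcg1 had no entry. CCAAT was present before 15 of the 16 enzymes (93.8%), the exception being Acat2, against 41.4% of 8020 tested genes with a window and 37.5% of all 27025 genes with one. GGGCGG was present before 14 of the 16 enzymes (87.5%), against 64.2% of the tested genes, and TCACNCCAC before 1 of 16 (6.25%), against 1.28%. The E-box CACGTG was present before 3 of the 16 (18.8%), against 10.2%. A gene could have more than 1 start window and counted once if any held the motif; the 16 enzymes had 19 windows. RefSeq and GENCODE starts can differ. The marked letters of Idi1 and Msmo1 lie inside the GENCODE genes, which begin at 8885501 (Idi1) and, on the minus strand, at 64733792 (Msmo1). A motif match is a description of letters and does not show that a factor was bound.

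The genes that switch synthesis on and off were divided as well: of 5, Srebf1 and Scap rose, Srebf2 and Insig2 fell and Insig1 was not called. So 80% were called, against 54.7% of all genes tested. Srebf2, which encodes the main activator of the sterol enzymes, had 51.8, 52.2 and 52.4 FPKM in irradiated HSCs, against 54.8, 55.1 and 56.9 FPKM in control HSCs. The separation was complete but narrow, with a log2 fold change of -0.09 (SE 0.0271, limma adjusted p = 0.0162), and the call was lost without control replicate 3 (adjusted p = 0.0671). Srebf1, whose products mainly drive fatty acid synthesis, had 23.7, 23.8 and 24.1 FPKM in irradiated HSCs, against 20.5, 20.6 and 20.2 FPKM in control HSCs (0.22, SE 0.0319, adjusted p = 0.000287). Every library had more Srebf2 than Srebf1 RNA per length. The ratio of Srebf1 to Srebf2, chosen after the values were seen, was 0.458, 0.457 and 0.460 in irradiated HSCs and 0.374, 0.373 and 0.355 in control HSCs, a description with no test. The tables give 1 value per symbol, so the alternative starts of Srebf1 cannot be told apart, and Srebf1 overlaps Rai1 on the opposite strand.

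Scap, the escort of SREBP, had 16.2, 17.2 and 17.1 FPKM in irradiated HSCs, against 15.3, 14.6 and 15.2 FPKM in control HSCs (log2 fold change 0.15, limma adjusted p = 0.00904). Insig2, an INSIG protein whose gene is known in liver for insulin control, had 7.12, 7.58 and 7.46 FPKM in irradiated HSCs, against 8.84, 8.40 and 7.75 FPKM in control HSCs (-0.15, adjusted p = 0.0338). Its call was lost without irradiated replicate 1 or 3 or control replicate 1 or 2 (adjusted p between 0.0622 and 0.124), without a filter on low values (0.0602) and with a replicate block (0.0542). Insig1, itself a target of SREBP and a usual readout of its activity, averaged 13.1 ± 0.755 FPKM in irradiated HSCs and 13.7 ± 1.18 FPKM in control HSCs (SD, n = 3 each). Its groups overlapped, and the 95% interval of its log2 fold change ran from -0.19 to 0.09.

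Of the 4 genes of sterol movement and storage 1 rose, 2 fell and 1 was not called, and in none of them did the groups overlap; over all genes tested 54.7% were called and 61.7% had separated groups. Npc1 and Npc2, the membrane and the soluble protein that release cholesterol from lysosomes, both fell. Npc2 had 65.3, 65.2 and 65.4 FPKM in irradiated HSCs, against 75.4, 76.3 and 76.1 FPKM in control HSCs (log2 fold change -0.21, SE 0.0237, limma adjusted p = 4.57e-05). Npc1 had 3.94, 3.62 and 3.65 FPKM in irradiated HSCs, against 4.81, 4.68 and 4.68 FPKM in control HSCs (-0.27, SE 0.0521, adjusted p = 0.00138). In both genes all irradiated libraries lay below all controls; Npc1 overlaps Rmc1 on the opposite strand. Stard4, a soluble carrier that moves sterol between membranes and a known SREBP target, went the other way, with 8.05, 7.71 and 8.17 FPKM in irradiated HSCs, against 6.24, 6.06 and 6.40 FPKM in control HSCs (0.31, SE 0.0461, adjusted p = 0.000298). Soat1, which esterifies cholesterol for storage, had 8.32, 7.77 and 8.26 FPKM in irradiated HSCs, against 7.44, 7.39 and 7.44 FPKM in control HSCs. Its groups did not overlap, but it missed the threshold (0.11, adjusted p = 0.0542), which it passed without irradiated replicate 2 (0.0355), without the mean-variance trend (0.0286) and when libraries were scaled to a common median (0.0431).

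On the efflux side the pump gene Abcg1 was not called, the pump gene Abca1 was not tested, and the more abundant receptor gene fell. Nr1h2, which encodes LXR-beta, had 40.02, 37.5 and 40.8 FPKM in irradiated HSCs, against 45.1, 47.0 and 46.1 FPKM in control HSCs, all irradiated libraries lying below the controls (log2 fold change -0.22, SE 0.0366, limma adjusted p = 0.000615). Nr1h3, which encodes LXR-alpha, the form known from macrophages and liver, was near the detection limit, with 0.9992, 0.439 and 0.485 FPKM in irradiated HSCs and 0.471, 0.741 and 0.289 FPKM in control HSCs. At the estimated depth and the longest annotated transcript these values rest on only about 8 to 31 fragments in a library, and the groups overlapped.

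Abcg1, the pump that passes cholesterol to lipoproteins, had 20.3, 21.1 and 21.0 FPKM in irradiated HSCs, against 20.1, 19.2 and 19.9 FPKM in control HSCs. The irradiated libraries lay just above the controls, but the difference was not called (0.07, 95% interval -0.01 to 0.15, limma adjusted p = 0.107). Abca1, the pump that loads free apolipoprotein, had 0.554, 0.727 and 0.635 FPKM in irradiated HSCs and 0.604, 0.584 and 0.580 FPKM in control HSCs, overlapping ranges below the filter; its long transcript still gave about 86 to 110 fragments in a library. Without the filter its log2 fold change was 0.04 (limma adjusted p = 0.484), and that of Nr1h3 was 0.12 (adjusted p = 0.546). Mylip, an LXR target that marks lipoprotein receptors for degradation, averaged 5.17 ± 0.595 FPKM in irradiated HSCs and 5.21 ± 0.65 FPKM in control HSCs (SD, n = 3 each), with a wide interval of -0.21 to 0.19.

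Set side by side, no opposite shifts of synthesis and efflux were called, and of the efflux pumps only Abcg1 could be tested. The 19 synthesis enzymes had a median log2 fold change of -0.03, with 4 higher, 3 lower and 12 not called, so 36.8% were called against 54.7% of all genes tested. The 3 tested genes of LXR signalling, efflux and receptor turnover had a median of -0.01, with 1 lower and 2 not called. This median is the value of Mylip, a gene of receptor turnover, between Nr1h2 at -0.22 and Abcg1 at 0.07. For Abcg1 all irradiated libraries lay above all controls, though it was not called, and Abca1 was not tested. The median of these 3 genes moved between -0.10 and 0.06 when single libraries were left out, so it carries no direction.

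**Figure D4:**
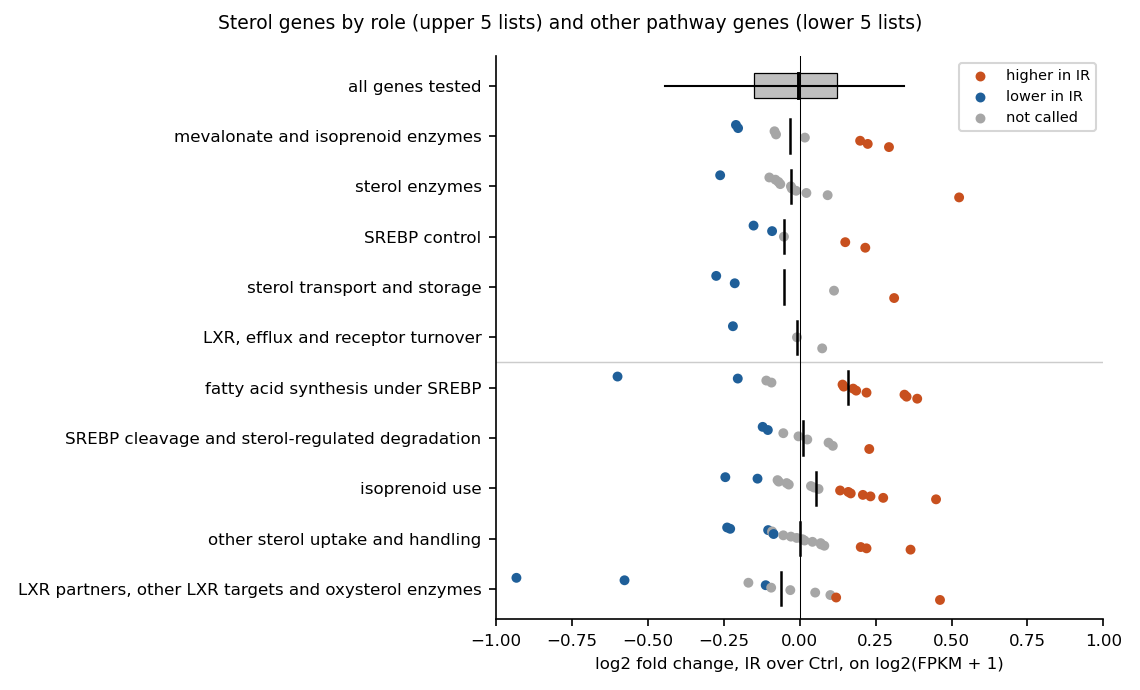
Log2 fold change (irradiated over control, log2(FPKM + 1) scale) of each tested gene by role, orange where higher in irradiated HSCs, blue where lower and grey where not called, with short black lines at the list medians and, in the top row, the 5th to 95th percentile (line), the quartiles (box) and the median of all 10281 genes tested. The 5 lists above the grey line straddle 0; the fatty acid list lies mostly to the right of 0, with a median of 0.16.

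Other genes of the pathway, 72 in 5 lists, were read from the same fit. Among the 64 that could be tested there were 21 risers and 13 that fell (53.1% called, against 54.7% of all genes tested). Fatty acid synthesis genes under SREBP rose in 8 of 12 cases and fell in 2, with a median log2 fold change of 0.16 and a range of -0.60 to 0.39. Scd2, a stearoyl-CoA desaturase, averaged 46.2 ± 0.427 FPKM in irradiated HSCs and 35.1 ± 0.748 FPKM in control HSCs (SD, n = 3 each; 0.39, limma adjusted p = 3.96e-06), and Fasn, fatty acid synthase, 8.51 ± 0.276 FPKM in irradiated HSCs and 6.49 ± 0.173 FPKM in control HSCs (0.35, adjusted p = 0.000148). Elovl5, an elongase, had a log2 fold change of 0.22, while Lpin1, a phosphatidate phosphatase of triglyceride synthesis, fell to 2.79 ± 0.147 FPKM in irradiated HSCs, against 4.74 ± 0.0847 FPKM in control HSCs (-0.60, adjusted p = 1.1e-05).

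Genes that use isoprenoids rose in 7 of 16 cases and fell in 2 (median 0.06). So 56.2% were called, close to the 54.7% of all genes tested. Coq2, the prenyltransferase of ubiquinone synthesis, rose by 0.23, Dhdds, a subunit of the dolichol-making prenyltransferase, by 0.28 and Pggt1b, a subunit of a geranylgeranyl transferase, by 0.45, while Fnta, the alpha subunit it shares with farnesyltransferase, had a log2 fold change of -0.14. Among genes of SREBP cleavage and sterol-regulated degradation 1 of 8 rose and 2 fell (median 0.01), 37.5% called. Mbtps1, the site-1 protease of SREBP, averaged 31.5 ± 0.573 FPKM in irradiated HSCs and 26.7 ± 1.51 FPKM in control HSCs (0.23, limma adjusted p = 0.00109), the ubiquitin ligase gene Rnf145 had a log2 fold change of -0.10, and Erlin1, a sterol-sensing partner of such ligases, was not called (0.09, adjusted p = 0.0504).

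Other genes of uptake and handling rose in 3 of 18 cases and fell in 4 (median 0.00). Of them 38.9% were called, against 54.7% of all genes tested. Tmem97, a membrane protein linked to lipoprotein uptake in human cells, averaged 111 ± 1.47 FPKM in irradiated HSCs and 86.4 ± 3.47 FPKM in control HSCs (log2 fold change 0.37, limma adjusted p = 7.68e-06). The lipoprotein receptor gene Vldlr fell to 19.8 ± 0.453 FPKM in irradiated HSCs, against 23.6 ± 0.510 FPKM in control HSCs (-0.24), and Lipa, the lysosomal acid lipase that frees cholesterol from its esters upstream of Npc1 and Npc2, fell to 32.4 ± 1.21 FPKM in irradiated HSCs, against 38.1 ± 0.720 FPKM in control HSCs (-0.23). Osbpl8, a lipid exchanger at membrane contacts, rose by 0.20. Among LXR partners, further LXR targets and oxysterol enzymes 2 of 10 rose and 3 fell (median -0.06), 50% called. Smpdl3a, an LXR target in human macrophages, fell to 42.1 ± 0.779 FPKM in irradiated HSCs, against 63.4 ± 1.22 FPKM in control HSCs (-0.58, limma adjusted p = 2.46e-07). Cyp27a1, a mitochondrial sterol hydroxylase that makes an oxysterol ligand of LXR, fell to 1.36 ± 0.112 FPKM in irradiated HSCs, against 3.51 ± 0.423 FPKM in control HSCs (-0.93, adjusted p = 7.4e-06), and Hsd3b7, a dehydrogenase of oxysterol and bile acid metabolism, averaged 120 ± 3.08 FPKM in irradiated HSCs and 87.0 ± 2.70 FPKM in control HSCs (0.46, adjusted p = 1.47e-06). Rxrb, a partner of LXR in DNA binding, rose by 0.12.

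Steps between low values correspond to about 14300000 to 16300000 fragments in a library, and 10122 to 10212 genes reached 1 FPKM. Among the HSC markers Kit and Ly6a were abundant, at 96.7 and 157 FPKM in irradiated HSCs and 97.5 and 203 FPKM in control HSCs, Slamf1, Procr, Hlf, Mecom and Ctnnal1 were between 2.64 and 19.2 FPKM, and Fgd5 was under 1 FPKM in both groups. RNA of neutrophil granule genes was also abundant, the 8 listed genes summing to between 4558 and 4702 FPKM in irradiated and between 3960 and 3999 FPKM in control libraries, with 3 higher and 5 lower. Mpo, Elane and Prtn3 held most of this sum and were the 3 that rose, Mpo with 2660 FPKM in irradiated and 2250 FPKM in control HSCs. By mean level among all genes tested, these 3 stood at percentiles 99.4 to 100. The HSC markers ranged from percentile 0 (Fgd5) to 95 (Ly6a), with Slamf1 at 24.7 and Mecom at 19.3. The purity of the sort was not tested, and HSC here names the sorted cells. S100a8, S100a9, Ltf, Camp and Ngp fell, Ngp with 2.96 FPKM in irradiated and 9.21 FPKM in control HSCs. Beside the marker counts of this paragraph, 54.7% of all genes tested were called, 25.8% higher and 28.9% lower. Summed levels of markers of other cells differed between the groups, and their part in the sterol genes' changes was not tested. The 11 macrophage markers summed to 58.3 to 63.1 FPKM in irradiated and 64.7 to 71.6 FPKM in control libraries, 4 of 6 tested fell and none rose; Marco was at 0 in all libraries, Mertk stayed at or below 0.0217 FPKM in both group means, and Cd68 held most of the sum at 44.4 and 47.1 FPKM in irradiated and control HSCs. The 9 erythroid markers summed to 79.9 to 86.1 FPKM in irradiated and 57.1 to 62.9 FPKM in control libraries, 4 of 6 tested rose and 2 fell, and Alas2 and Slc4a1 averaged under 1 FPKM. Car1 held most of the irradiated sum, with 48 FPKM in irradiated and 19.9 FPKM in control HSCs. The 2 that fell were the globin genes Hba-a1 and Hbb-bs, Hbb-bs with 5.94 FPKM in irradiated and 13.3 FPKM in control HSCs. The 8 markers of cycling cells summed to 648.2 to 665 FPKM in irradiated and 669.6 to 681.3 FPKM in control libraries, with 2 higher and 2 lower. Their mean levels stood between percentile 34 (Mki67) and 93.7 (Ccnb2) of all genes tested. B cell, T cell and endothelial markers summed to 0.755, 0.520 and 0.798 times the control mean in irradiated HSCs. Of 3 B cell markers tested 1 rose and 2 fell, of 2 T cell markers 2 fell, and of 4 endothelial markers 3 fell and 1 was not called. Cd79b held most of the B cell sum and Lck most of the T cell sum, with Pax5, Ebf1, Cd3e, Cd3g and Cdh5 at or near 0. In bulk RNA fewer cells of a type and less RNA per cell cannot be told apart.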

How the data were processed

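RNA of sorted mouse HSCs was measured in 6 libraries made with a strand-specific kit for polyadenylated RNA, per the labels' protocols. The submitters' processing notes name fastp, HISAT2, StringTie and the build GRCm38 (mm10); no versions, settings or annotation were found. The deposited values were read as FPKM, a unit inferred from the values and from StringTie. Each table held 21878 entries; 27 with a calendar date for a symbol were left out.

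The 10281 genes that reached 1 FPKM in 3 or more libraries were analysed as log2(FPKM + 1) by limma 3.58.1 (mean-variance trend, 2-sided) in R 4.3.3, with Benjamini-Hochberg adjustment over all of them and a threshold of 0.05. All 33 sterol genes are named; of each further list the 4 genes with the smallest p are named, apart from an item that is not reported here. The members, lists, tests and alternatives were chosen with earlier results of these data known. The script was tested on simulated data. Folds without log2 are ratios of mean FPKM. Positions are from GENCODE M21 (GRCm38).

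In single-transcript genes 23.4% to 26.9% of low values lay within 0.01 of a whole multiple of a step, too few to recover reads but enough to estimate depth. Replicates differed by 1.31 to 1.72 times counting noise (median chi-square over its expectation, 6 pairs), so none was treated as a second deposit of another; this does not show that they came from separate mice. Alternatives were a pseudocount of 0.1 or 5, no filter, a filter of 5 FPKM, median scaling, no trend, a replicate block and each library left out in turn.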

Additional observations from a re-analysis of the deposited data

How the results depend on the processing

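Of 400 values of the 31 tested sterol genes under 13 alternative settings, 371 kept their direction and their side of the threshold, 14 missed a threshold passed before, 6 passed it newly and 9 changed sign. The sign changes came from leaving out 1 library of genes that were never called: over those settings Acat2 ranged from -0.014 to 0.041, Fdft1 from -0.005 to 0.042, Cyp51 from -0.072 to 0.008, Hsd17b7 from -0.137 to 0.022, Insig1 from -0.103 to 0.01 and Mylip from -0.099 to 0.067. Mvd lost its call without a filter (adjusted p = 0.072) and without the variance trend (adjusted p = 0.0525), beside the libraries named with it. The number of sterol genes called by limma lay between 13 and 16, that of synthesis enzymes between 6 and 8, and that of all genes called between 4381 with a filter of 5 FPKM and 6487 with none. The median log2 fold change of the synthesis enzymes ranged from -0.05 without control replicate 3 to -0.008 without irradiated replicate 2. That of LXR, efflux and receptor turnover ranged from -0.099 without control replicate 3 to 0.063 without irradiated replicate 2, and was 0.043 without a filter, when Abca1 and Nr1h3 joined it. Scaling moved the median of all genes tested to 0.001, against -0.007. Libraries with the same replicate number did not deviate together (correlations of -0.049 to 0.009). Deviations within a group were not far above counting noise, so this cannot settle whether the numbers pair the samples. With a replicate block 14 sterol genes and 5379 of all genes were called, against 15 and 5622 without it. Depth limits Nr1h3, which rests on few fragments.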

Other observations

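Some genes of the wider lists stood below the filter and were not tested; they were chosen after their values were seen. Me1, the cytosolic malic enzyme that supplies NADPH for lipid synthesis, had 0.364, 0.556 and 0.362 FPKM in irradiated HSCs, against 0.0370, 0.0168 and 0.0380 FPKM in control HSCs. Lrp1, a large endocytic receptor of the lipoprotein receptor family, had 0.251, 0.354 and 0.332 FPKM in irradiated HSCs, against 0.754, 0.702 and 0.792 FPKM in control HSCs. Ch25h, which makes an oxysterol from cholesterol, was listed at 0 in all 3 irradiated libraries and at 0.1, 0.0909 and 0.0513 FPKM in control libraries. The values of Ch25h and the control values of Me1 lie near 0. Their fragments were not estimated, and a listed 0 does not show that expression was lost.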
